A study of Mus musculus with 1 sample.

Results

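Matricellular proteins are secreted proteins that sit in the extracellular matrix and act on cells through receptors and bound growth factors rather than as structural fibres. The genes of 8 such proteins, Sparc, Sparcl1, Thbs1, Thbs2, Thbs3, Tnc, Postn and Spp1, were examined in ovarian surface epithelium together with Fn1, which encodes the fibril-forming matrix glycoprotein fibronectin, and Lgals1, which encodes the sugar-binding protein galectin-1. They were picked by gene symbol, with the intensities of this array already known, and every probe set paired with 1 of these symbols alone was taken. Of the 10 genes 9 had such a probe set, and their 17 probe sets were among 34945 that the annotation used here pairs with a single symbol, for 18193 genes in all. No probe set was paired with Spp1, the gene of osteopontin, in that annotation, and Spp1 was not analysed here.

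The RNA came from cells of the ovarian surface epithelium, the mesothelial-type layer that covers the ovary, of wild type mice aged 3 months. Total RNA was hybridised as biotin-labelled cRNA to a single Affymetrix mouse expression array. The design of the series names 3 genotypes. As only the 1 wild type sample is examined here, genotypes were not compared, values carry no replicate error and no p-value is given. The strain, the number of mice and whether the cells were cultured are not stated in the labels.

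In this setting the genes have distinct roles. Fibronectin is secreted as a dimer, bound by integrins and pulled into fibrils at the cell surface, and collagens and other matrix proteins are laid down on it. SPARC binds collagen and calcium, thrombospondins 1 and 2 bind receptors such as CD36 and CD47 and restrain the growth of blood vessels, and tenascin-C and periostin are typical of remodelling and healing matrix. Galectin-1 is made without a signal peptide, leaves the cell by a non-classical route and cross-links glycoproteins, fibronectin among them.

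The values are intensities on a linear scale, rounded to whole numbers, and a value at or under an intensity of 46.5 is treated as background. Gene families not expected to be expressed in the ovary set this limit. It is the 95th percentile over 126 probe sets of keratin-associated proteins and of smell, pheromone and bitter taste receptors, whose median was 13. Of the 9 measured members 7 had their brightest probe set above the limit, or 77.8%, against 62.8% of all 18193 genes. The median of the brightest probe sets was 3562 for the members and 133 for all genes. A gene with more probe sets has more chances to pass. The limit was passed by 47.3% of genes with 1 probe set, 71.8% of those with 2 and 82.9% of those with 3, and the members had 1, 2 or 3 each. Of the 17 member probe sets 15 were above the limit, or 88.2%, against 55.1% of all single-symbol probe sets. Probe sets differ in how well they bind their target, so medians and places on the array's intensity scale are descriptions of this array and do not rank the amounts of different transcripts.

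**Figure D1:**
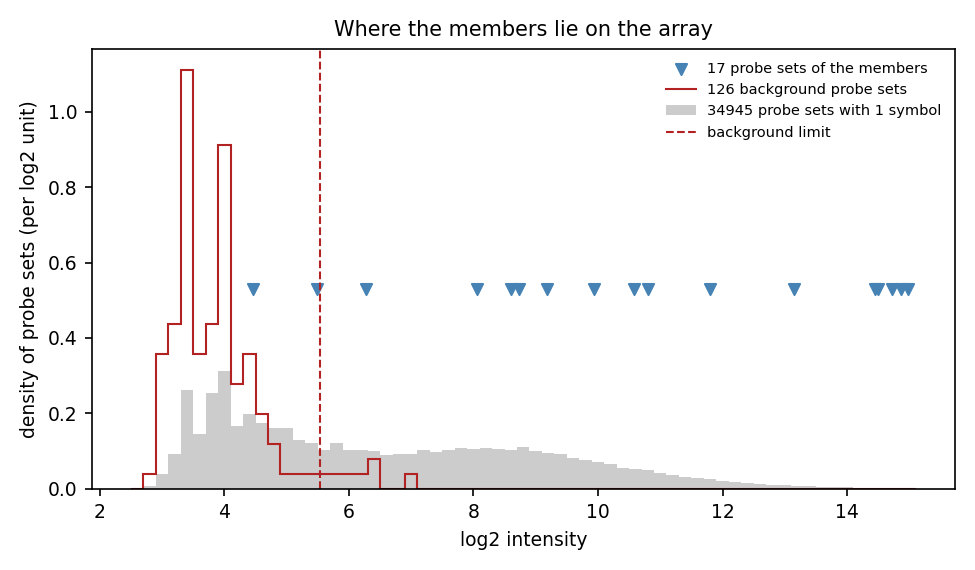
Log2 intensity of the 17 probe sets of the measured members (triangles, drawn at an arbitrary height), of the 126 background probe sets (outline) and of all 34945 single-symbol probe sets (grey), as densities per log2 unit. The dashed line is the background limit at 46.5, or 5.54 on the log2 scale, and 2 of the triangles lie to its left.

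All 8 measured markers of surface epithelium and mesothelium were above the limit, with Krt8, a keratin of simple epithelia, between 3172 and 4573 on 3 probe sets and Krt19, another such keratin, at 4897. Of the markers of other cells, 6 of 7 for fibroblasts, 6 of 7 for smooth muscle and pericytes, 7 of 7 for macrophages and 3 of 4 for theca and luteal cells were above the limit, a higher share than the 62.8% of all genes. Those for platelets (3 of 6), oocytes (1 of 5) and endothelium (1 of 7) were above it in a lower share. Most of these markers have 1 probe set, and of all genes with 1 probe set 47.3% passed. The platelet share of 50% was near that figure. Granulosa markers were above it in 3 of 5 cases, or 60%, near the 62.8% of all genes. With the lower limit of 25.5, the 90th percentile of background, 73.2% of all genes passed. The platelet count was then 5 of 6, the granulosa count 5 of 5 and the oocyte count 2 of 5. The platelet and granulosa shares were then above that of all genes. By the dimmest probe set, where 39.7% of all genes passed, the smooth muscle count was 3 of 7. Pdgfra, which encodes a PDGF receptor of fibroblasts, passed with 1 of its 3 probe sets, which read 916, and Col1a1, a chain of type I collagen, had 6440 and 8290. Acta2, smooth muscle actin, had 23141, 327 and 23, and Tagln, which encodes transgelin, a partner of that actin, read 22357. Rgs5, the 1 smooth muscle and pericyte marker below the limit, had at most 16 on 4 probe sets. The macrophage markers had a median of 244, against 4740.5 for those of surface epithelium. Among them Adgre1, at 47, was only just over the limit. At 2 times the limit, which 54.1% of all genes passed, the macrophage count was 6 of 7. By the mean of the probe sets, where 57.6% of all genes passed, the theca and luteal count was 2 of 4. The endothelial junction genes Pecam1 and Cdh5 were at background, with 14 and at most 23. The 1 endothelial marker above the limit, Kdr, had 1813 on its only probe set. In the RNA of 1 sample more cells of a type and more RNA per cell cannot be told apart. Whether cells other than surface epithelium were present, and how far each type contributed to the members' intensities, was not tested. Control probe sets along 2 housekeeping transcripts gave a 3′ to 5′ intensity ratio of 1.54 for Actb (24792 and 16073) and 0.939 for Gapdh (20207 and 21516).

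Fibronectin and galectin-1 transcripts gave some of the highest readings. Fn1 had 22422 on probe set 1426642_at and 424 on probe set 1437218_at. Both lay above the limit, by 8.91 and 3.19 on the log2 scale, and they differed by 52.9 times although the annotation pairs each with Fn1 alone. Lgals1 had 32341 on probe set 1455439_a_at and 29897 on 1419573_a_at. The first was the highest of all 45101 intensities on the array. The Lgals1 probe sets differed by only 1.08 times, an SD of 0.08 on the log2 scale, and 2.66% of genes with several probe sets had a smaller SD. Both identifiers carry the suffix that marks several transcripts of the same gene, and whether these probes were saturated was not tested.

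Sparc and Sparcl1, which encode a pair of related collagen- and calcium-binding proteins, lay on opposite sides of the limit. Sparc had 26924 on 1416589_at, 23255 on 1448392_at and 77 on 1458204_at. All 3 passed the limit, the brightest by 9.18 on the log2 scale and the dimmest by 0.73. The brightest was 349.7 times the dimmest, and the SD of 4.82 between them on the log2 scale exceeded that of 98.8% of the 9010 genes with several probe sets, whose median SD was 1.39. The bright pair is annotated with a RefSeq mRNA as its target and the dim one with another GenBank entry. Sparcl1, or hevin, an anti-adhesive protein known from high endothelial venules and astrocytes, had a single probe set at 22, below the limit by 1.08 on the log2 scale. A value of 22 says that no Sparcl1 signal was detectable over the array's background, not that the transcript was absent.

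The thrombospondins lay on both sides of the limit as well, but Thbs3 only narrowly. Thbs1, which encodes the platelet and matrix protein thrombospondin-1, an activator of latent TGF-beta, had 3562 on 1460302_at and 389 on 1450377_at. Both were above the limit, and they differed by 9.16 times. Thbs2, its close relative in the trimeric subgroup, had 1532, 984 and 580, all of them above the limit and within 2.64 times of each other. Thbs3, a member of the pentameric subgroup, had 1 probe set at 45, just under the limit of 46.5. Of the platelet markers, Pf4, a chemokine stored in platelet granules, had 119 and Ppbp, another, had 14.

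**Figure D2:**
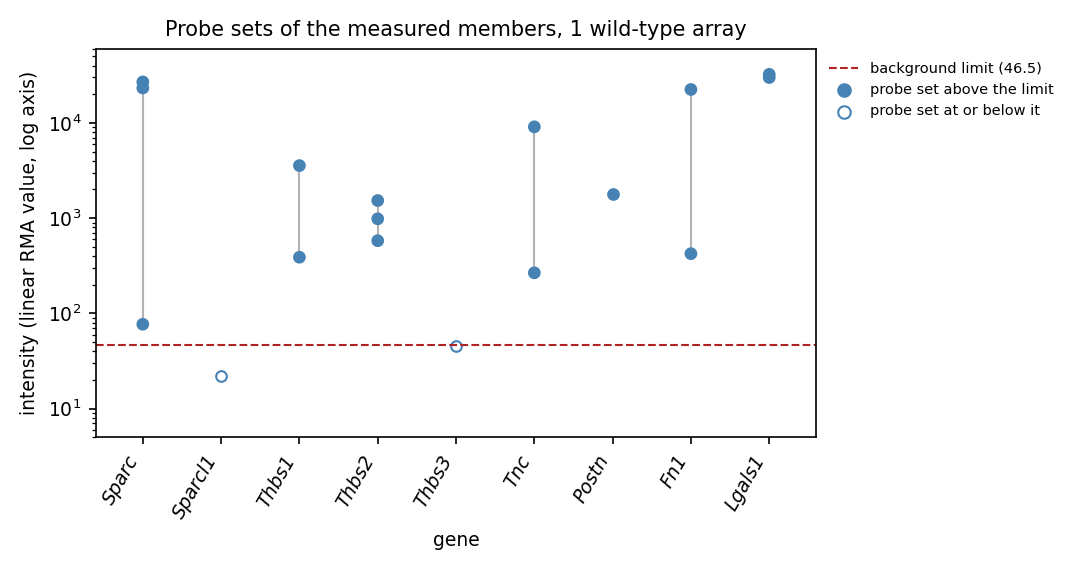
Intensity of every probe set of the 9 measured members on a log axis, 1 point per probe set, with a grey line joining probe sets of a gene and the background limit dashed. All probe sets of Sparc, Thbs1, Thbs2, Tnc, Postn, Fn1 and Lgals1 lie above 46.5, and those of Sparcl1 at 22 and Thbs3 at 45 lie below it.

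Tnc, which encodes the hexameric matrix protein tenascin-C, had 9090 on 1416342_at and 267 on 1456344_at. Both exceeded the limit, by 7.61 and 2.52 on the log2 scale, and they differed by 34.0 times. As for Sparc, the bright probe set has a RefSeq mRNA as its annotated target and the dim one does not. The Fn1 probe sets, at 22422 and 424, are both annotated with another GenBank entry. Over the 1966 genes that have both kinds of probe set, the RefSeq one was brighter in 54.5%, with a median difference of 0.26 on the log2 scale. For Sparc and Tnc the differences were 8.45 and 5.09. Postn, which encodes periostin, a partner of collagen and of tenascin-C, had 1779 on its only probe set, 5.26 above the limit on the log2 scale.

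The 7 members above the limit passed it with every probe set they have, so by the dimmest probe set of each gene the count was also 7 of 9, while the share of all genes by that measure was 39.7%. The dimmest of their 15 readings was the Sparc value of 77. Of the 6 members with several probe sets, Sparc, Fn1, Tnc and Thbs1 had an SD above the array's median of 1.39 on the log2 scale, and Thbs2 and Lgals1 one below it, at 0.70 and 0.08. At the top of the scale, 4 members (Sparc, Fn1, Lgals1 and Tnc) had a probe set above the array's 99th percentile of 7874. Intensities over 20000 were read on 54 probe sets of the array, of which 5 belonged to Sparc, Fn1 and Lgals1.

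Promoter windows of RefSeq, in build GRCm38.p6, were at hand for 6 of the 10 genes and reach from 250 bases before an annotated start to 50 after it. The windows of Thbs2 and Thbs3 are shown because these relatives fell on opposite sides of the limit, though Thbs3 was only just under it. For Postn 1 of the 2 windows is shown because it holds a TATA motif at the usual distance from the start. Capitals mark matches, on either strand, to TATAAA, the CCAAT box CCAAT and the GC box GGGCGG.
Thbs2, chr17:14694213-14694512, minus strand: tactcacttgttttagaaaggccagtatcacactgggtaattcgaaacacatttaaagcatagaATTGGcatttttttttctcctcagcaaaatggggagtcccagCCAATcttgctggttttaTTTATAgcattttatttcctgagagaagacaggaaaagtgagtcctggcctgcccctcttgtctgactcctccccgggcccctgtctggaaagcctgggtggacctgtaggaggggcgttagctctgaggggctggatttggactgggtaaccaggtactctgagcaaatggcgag
Thbs3, chr3:89214930-89215229, plus strand: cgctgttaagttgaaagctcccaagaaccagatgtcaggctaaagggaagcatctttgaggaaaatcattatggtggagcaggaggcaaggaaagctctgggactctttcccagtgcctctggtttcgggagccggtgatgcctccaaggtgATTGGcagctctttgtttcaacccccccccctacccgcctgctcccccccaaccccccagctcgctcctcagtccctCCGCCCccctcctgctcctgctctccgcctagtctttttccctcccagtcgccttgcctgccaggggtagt
Postn, chr3:54360857-54361156, plus strand: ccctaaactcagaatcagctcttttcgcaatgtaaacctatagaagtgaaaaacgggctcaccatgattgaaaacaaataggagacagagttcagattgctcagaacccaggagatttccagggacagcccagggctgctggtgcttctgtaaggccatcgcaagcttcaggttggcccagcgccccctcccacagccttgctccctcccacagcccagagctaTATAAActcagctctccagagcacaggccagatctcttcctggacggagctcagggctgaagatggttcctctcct

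The Thbs2 window holds a match to CCAAT on the opposite strand 186 bases before the start, another on the given strand 144 bases before it, and 1 to TATAAA on the opposite strand 126 bases before it. The Thbs3 window holds no TATAAA, 1 CCAAT match on the opposite strand 98 bases before the start and 1 GGGCGG match on the opposite strand 21 bases before it. The Postn window holds TATAAA 26 bases before the start and neither of the other motifs. The AP-1 motif TGANTCA was searched as well and matched in none of the member windows. Of all 32851 promoter windows 13.6% hold TATAAA, 37.4% CCAAT, 35.7% GGGCGG and 7.81% TGANTCA. The matches shown share no base with each other, and a match in a window does not show a bound factor. The Sparc window, chr11:55420031-55420330 on the minus strand, has none of the 4 motifs. The windows of Thbs2, Thbs3 and Postn hold 4, 8 and 5 CG pairs, against a median of 7 over all windows.

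Of 17 measured protein-coding genes next to the members on the chromosome 9 were above the limit, or 52.9%, near the 62.8% of all genes. Thbs3 lies beside Mtx1, the gene of the mitochondrial import protein metaxin 1, which in mouse shares an intergenic promoter region with Thbs3. Mtx1 had 1349 and 558 on its 2 probe sets, both above the limit, while Thbs3 had 45. Muc1, the mucin gene on the other side of Thbs3, had 51, just over the limit. Thbs2 lies beside Smoc2, which encodes a SPARC-related protein and had 716 and 40. Neither neighbour of Thbs1 was above the limit: Rasgrp1 had at most 28 and Fsip1 at most 17.

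Beyond the members, 22 related matricellular genes were measured and 10 of them were above the limit, or 45.5%, against 62.8% of all genes. Their median was 39.3, against 133 over all genes. Neither of the other thrombospondins passed: Thbs4 had 43 and Comp, the cartilage oligomeric matrix protein, had 15. None of the 3 other tenascins passed, with Tnxb at 31, Tnr, a tenascin of the nervous system, at 9 and Tnn at 36. At this limit Tnc alone passed among the tenascins measured. Taking the 90th percentile of the same background, an intensity of 25.5 that 73.2% of all genes pass, would put Thbs3, Thbs4, Tnxb, Tnn and Ccn3 above it.

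Of 6 other genes of the SPARC family 4 were above the limit, where 62.8% of all genes were. Fstl1, which encodes the secreted follistatin-like 1, had 15487 and 14364. Smoc2 passed with 1 of its 2, which read 716. Spock2, a proteoglycan core protein, and Smoc1 were near the limit, at 75 and 64, and Spock1 and Spock3 had at most 13 and 15. Tgfbi, the relative of Postn, had 4 probe sets between 392 and 1613.

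The family of Spp1, whose other members are proteins of bone and tooth, was mostly at background. Ibsp, Dmp1 and Dspp had at most 15, 12 and 17, and Mepe had 53, close to the limit. Among the 6 CCN genes, which encode matricellular regulators of growth factor signals, 4 were above the limit, where 62.8% of all genes were. Ccn1 had 4 probe sets between 234 and 5979, Ccn2, or connective tissue growth factor, had 9999 on its only one, and Ccn4 had 1622 and 2031. Ccn5 had 73, Ccn3 at most 35 and Ccn6 had 18. Of the 10 related genes above the limit, 4 were under 2 times it.

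**Figure D3:**
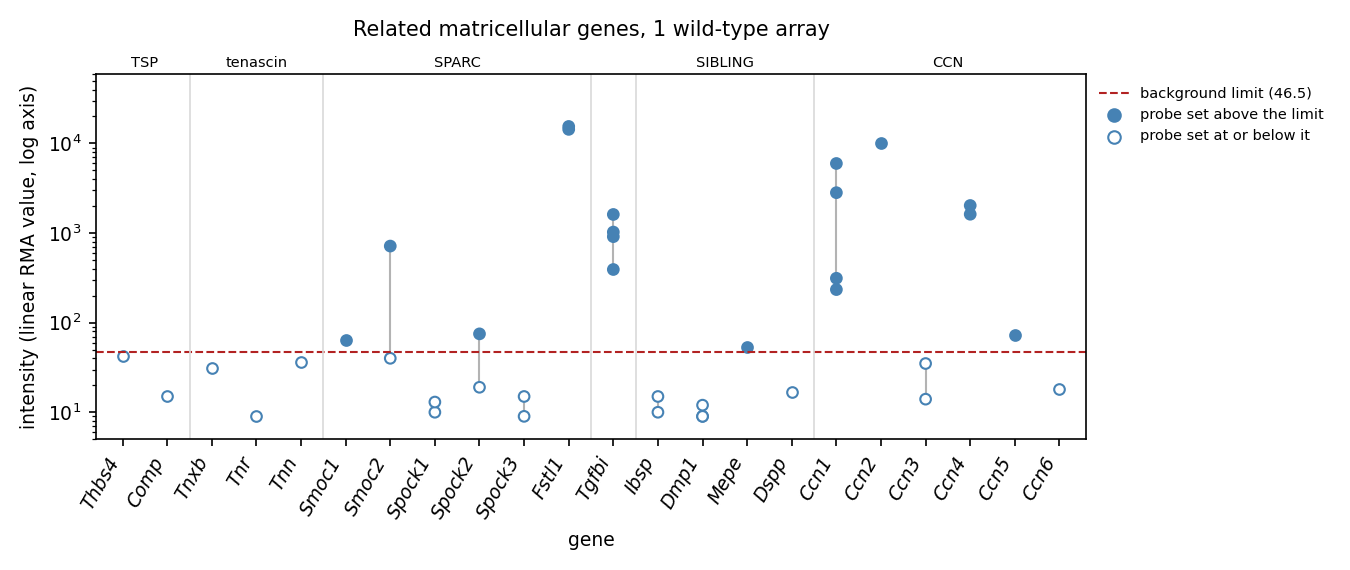
Intensity of every probe set of 22 related matricellular genes on a log axis, ordered by family (TSP, thrombospondins; the unlabelled gene is Tgfbi, of the periostin family), with the background limit dashed. Filled points lie above 46.5; Fstl1, Tgfbi, Ccn1, Ccn2 and Ccn4 have all their probe sets above it, and all thrombospondin and tenascin points lie below.

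Of 16 genes for cell surface receptors of the members 11 were above the limit, or 68.8%, against 62.8% of all genes, with a median of 989.8. The receptor genes had 1 to 7 probe sets each. The limit was passed by 71.8% of all genes with 2 probe sets and 82.9% of those with 3. By the dimmest probe set of each gene 3 of the 16 passed, where 39.7% of all genes did. Of the 8 integrin subunits 5 were above the limit by their brightest probe set, close to the 62.8% of all genes. Itga5 and Itgb1, which together form the main fibronectin receptor, reached 358 and 4299, and passed with 2 of their 4 and 3 of their 6 probe sets. Itgav, a subunit of receptors for fibronectin, osteopontin and periostin, reached 8240 over 5 probe sets, and its partner Itgb5 had 4 between 2408 and 3854. Another partner, Itgb3, had at most 39, below the limit of 46.5. Itga4 and Itga9, subunits of further fibronectin and tenascin-C receptors, had at most 22 and 37. Itga8 reached 131 on 1 of its 2 and was at background on the other.

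The thrombospondin-1 receptors also lay on both sides. Cd47, a receptor for the C-terminal part of thrombospondin-1, passed with 4 of its 5 probe sets and reached 2536. Cd36, the scavenger receptor that carries its anti-angiogenic signal in endothelium, had at most 16 on 3 probe sets. Calr and Lrp1, which bind thrombospondin-1 as a complex, had 5203 to 9921 on 3 probe sets and 2800 on the brighter of 2. Sdc4, a syndecan that binds the heparin-binding part of fibronectin, had 3339 and 12076. Cd44, a receptor for hyaluronan and osteopontin, passed with 2 of its 4, at 852 and 325. Stab1, the macrophage receptor that clears SPARC, had 39, below the limit. Egfr, to which repeats of tenascin-C bind, passed with 5 of its 7 and reached 1150. At the lower limit of 25.5 Itgb3, Itga9 and Stab1 also passed, which made 14 of 16 receptors, where 73.2% of all genes passed.

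**Figure D4:**
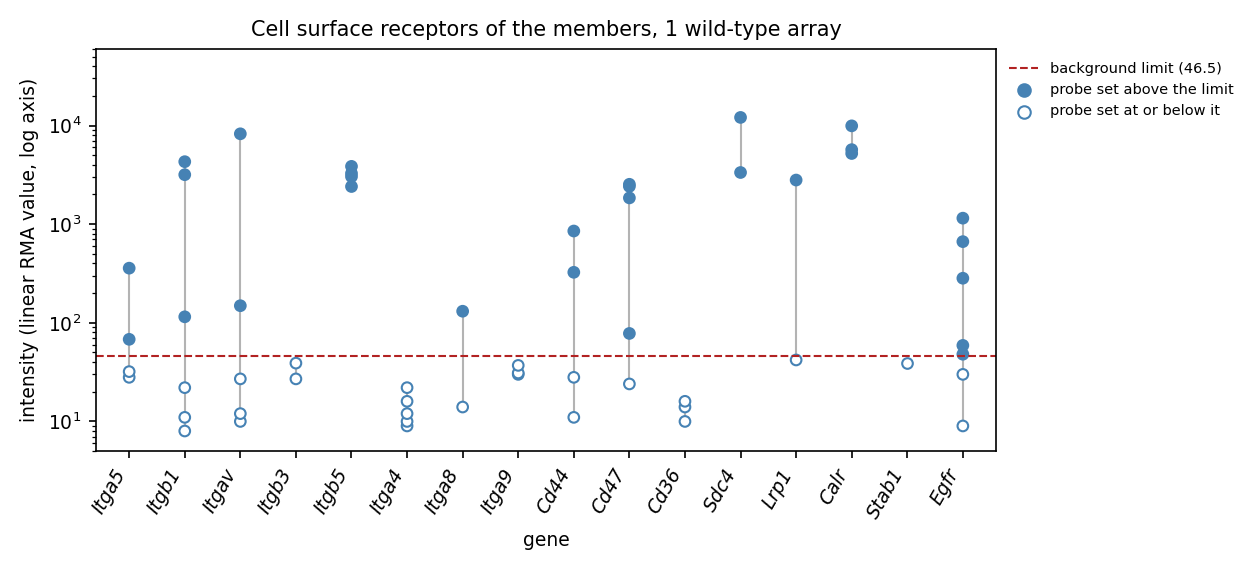
Intensity of every probe set of 16 receptor genes on a log axis, with the background limit dashed. Itgb5, Sdc4 and Calr have all their probe sets above 46.5, whereas Itgb3, Itga4, Itga9, Cd36 and Stab1 have none above it.

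Of 16 listed genes that take part in assembling or crosslinking fibronectin matrix 14 were measured, and Fbn1 and Loxl2 were not analysed here. All 14 were above the limit, against 62.8% of all genes, with a median of 7288. Most of them have several probe sets, and 71.8% of all genes with 2 probe sets and 82.9% of those with 3 passed. Tns1, which encodes tensin of fibrillar adhesions, had 3 probe sets between 422 and 2361. Ilk, an integrin-linked adhesion protein, had 2565. Tln1, which encodes the integrin activator talin, had 80 to 2011, and Vcl, vinculin, had 7928 and 40. Fbln1, which encodes fibulin-1, a fibronectin-binding protein, had 61 to 193. By the dimmest probe set of each gene, 8 of the 14 were above the limit, where 39.7% of all genes were.

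The small leucine-rich proteoglycans, matrix proteins of another kind, were above the limit in 7 of 12 cases, or 58.3%, near the 62.8% of all genes, with a median of 189.4. Dcn, decorin, had 15048 and 47, Bgn, biglycan, had 12582 to 19724, Lum, lumican, had 307, Fmod, fibromodulin, at most 327 and Ogn, osteoglycin, 3804 and 9647. The relatives of Lgals1 were above the limit of 46.5 in 7 of 7 cases, against 62.8% of all genes, with a median of 717. At the 99th percentile of background and at 2 times the limit 5 of the 7 were above, where 55.3% and 54.1% of all genes were. Lgals3 had 3434 and Lgals7 had 1610 on their only probe sets, Lgals2 had 1021 and 90, and Lgals8 had 717 and 119. Lgals4 and Lgals12 were near the limit, at 59 and 52. The 7 of 9 measured members above the limit, the 10 of 22 related matricellular genes and the 7 of 12 proteoglycans are counts from 1 array, and their difference was not tested.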

How the data were processed

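Per the labels' protocols, 5 ug of total RNA gave the biotinylated cRNA. The deposited table holds 1 intensity for each of 45101 probe sets, made with affy and RMA, of unstated version, per the submitters' processing notes. RMA corrects background, normalizes between arrays and mostly ends on the log2 scale. The deposited values were instead whole numbers, from 6 to 32341, on a linear scale. The sources used here give neither the step between nor the arrays that were normalized together. RMA compresses differences between dim probe sets.

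Probe sets were named from the platform annotation. Those with several symbols (932) or none (9160) and 64 control probe sets were left out, and 34741 of the remaining 34945 matched the GRCm38.p6 gene table with no change of symbol. The level of a gene was log2 of its brightest probe set. No test was possible with 1 array, whose precision is unknown. Alternatives were other percentiles, a limit 2 times as high, another background, the mean or dimmest probe set, and removal of probe sets with marked identifiers. All 10 genes and all lists were chosen with earlier results of these data known. The fibroblast markers Col1a1 and Fbln1 also stand in the assembly list, and Dcn and Lum in the proteoglycan list, so these counts overlap. Any member of the related, receptor and galectin lists could be named. So could the first 5 measured of the assembly and proteoglycan lists and the first 2 of each marker list. The neighbouring genes, Kdr, Adgre1 and Rgs5 were added later, with the values known. A planned description of the proteins was not made, since no protein sequences were used here. The computation was tested on simulated data. Expressed and silent genes were set far apart there, so calls near the limit were not tested. Computations ran in NumPy 2.4.6 and pandas 2.3.3 under Python 3.11.15, and plots in matplotlib 3.10.9.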

Additional observations from a re-analysis of the deposited data

Results flagged for a closer look

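A bright probe set lay outside the values reported for the members. Probe set 1421811_at, which the annotation pairs with both Pald1 and Thbs1, had an intensity of 8624, or 7.53 above the limit on the log2 scale. It entered no count because it carries 2 symbols. The probe sets paired with Thbs1 alone had 3562 and 389, and the only one paired with Pald1 alone, the gene of a phosphatase-like protein, had 520. How much of the 8624 came from either transcript was not tested. With only 1 sample, no spread between samples could be examined.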

How the results depend on the processing

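No paired analysis was possible because there is 1 sample. The count of members above the limit was 6 to 8 under the 7 other settings chosen at the outset, against 7 of 9. It was 8 for a limit taken from the 90th percentile of background (an intensity of 25.5, passed by 73.2% of all genes) and with olfactory and vomeronasal receptors alone as background (29.3, passed by 70.5%). The added gene was Thbs3, which then lay 0.82 and 0.62 above the limit on the log2 scale. It was 6 of 8 without probe sets of marked identifiers, where Lgals1 has no probe set left. By the dimmest probe set of each gene the members still numbered 7, while the share of all genes was 39.7%. Counting the shared probe set for Thbs1, an alternative chosen after seeing the data, put its level 7.53 above the limit in place of 6.26.

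The related matricellular genes above the limit fell to 6 of 22, in place of 10, both at the 99th percentile and with the limit 2 times as high. Of all genes 55.3% and 54.1% passed at these limits. By the dimmest probe set the receptors numbered 3 in place of 11, the assembly list 8 in place of 14 and the smooth muscle markers 3 in place of 6. With the limit at the 90th percentile, and equally with the receptor background, platelet markers numbered 5 in place of 3, granulosa markers 5 in place of 3 and oocyte markers 2 in place of 1. The other 109 counts stayed within 1.5 times. They include those of the setting that counts the shared probe set for Thbs1. None of these could change, since Thbs1 passes without it. With 1 array, signal over background limits what can be said of Sparcl1, Thbs3 and other dim genes.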
